A study of Mus musculus with 4 samples.

Results

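The genes described here encode receptors and bridging proteins by which phagocytes take up dying cells: the receptors Axl, Mertk, Tyro3, Timd4 and Lrp1, the bridging proteins Gas6, Pros1 and Mfge8, and the engulfment proteins Elmo1 and Dock1. They were chosen by gene symbol, through every probe set annotated with one of these symbols and no other. This gave 10 probe sets for 10 genes, 1 each, of 41345 probe sets and 22180 named genes on the array. Expression was measured in cultured mouse monocytes with high Ly6C, purified from bone marrow in which that of 3 mice was combined, and grown with GM-CSF and interleukin 4 (20 ng per ml each) in every sample, a mixture that drives monocytes toward dendritic cells. The samples were 2 cultured with 100 nM all-trans retinoic acid (RA) from the start and 2 cultured with the solvent DMSO, all taken after 24 h, on day 1. The labels give neither strain, sex nor age, and do not say whether samples of a treatment came from separate cultures. The p-values therefore measure the spread between these arrays, in part as pooled over all probe sets, and this spread may be technical.

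A dying cell exposes phosphatidylserine, a lipid otherwise held on the inner face of the plasma membrane, and phagocytes recognise it either directly or through soluble bridges. Gas6 and protein S (Pros1) are vitamin K dependent proteins that bind the exposed lipid at one end and the TAM receptor tyrosine kinases Tyro3, Axl and Mertk at the other. Mertk is known as a main receptor of dead cell clearance in resting macrophages, and Axl as a receptor induced by inflammatory signals and found on dendritic cells. Binding leads to activation of the small GTPase Rac1, which Elmo1 and Dock1 promote together, and to closing of the phagocytic cup.

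Over 39720 probe sets tested, 831 differed between RA and DMSO at a limma adjusted p under 0.05, which is 2.09% of them. Array medians lay between 80.0 and 81.8 on the linear intensity scale, and log2 intensities correlated across probe sets at 0.993 to 0.994 within a treatment and 0.984 to 0.988 between treatments. The macrophage and monocyte genes Cd68, Csf1r, Ccr2, Ly6c2 and Fn1 each lay above a log2 intensity of 11.3 on all arrays. So did the dendritic cell markers Itgax and H2-Ab1 and the neutrophil markers Elane and Mpo. Other monocyte markers were dimmer, with Cd14 at 7.57 to 7.97, F13a1 at 6.21 to 8.29 and Ms4a4c at 6.06 to 7.87. The macrophage markers Cd163, Siglec1 and Vsig4 lay under 6.35 on all arrays. These levels alone do not identify the cells. Of the dendritic cell markers, 5 of 11 fell with RA (Zbtb46, H2-Eb1, H2-Ab1, Ccr7 and Irf4) and 1 rose (Dpp4), and of 8 classical monocyte markers 3 fell (F13a1, S100a4 and Ms4a4c) and 1 rose (Fn1). A log2 intensity of 6.35 served as a guide to dim levels: it is the 95th percentile of olfactory and vomeronasal receptor probe sets, genes with no known use in monocytes.

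None of the 10 genes passed the threshold. Limma called 0 of the 10 probe sets (smallest adjusted p = 0.0659, for Axl), against 2.09% of all probe sets and 3.07% of named genes. At an unadjusted p under 0.05, 5 of the 10 differed: Mertk and Pros1 were higher with RA and Axl, Gas6 and Mfge8 were lower, where 13.4% of all probe sets reached that level. The other 5, Tyro3, Timd4, Elmo1, Dock1 and Lrp1, differed by at most 0.09 on the log2 scale. The RA and DMSO arrays did not overlap for 6 of the 10 genes, against 44% of all probe sets. All probe sets include unnamed and dim ones, whereas 8 of the 10 genes had means above the dim level in both groups. The shares over all probe sets are therefore not those of like probe sets. The median log2 difference over the 10 was -0.04, beside -0.01 over all probe sets tested. These counts depend on which probe sets enter the fit and on the model of the variance: Axl passed under 4 of 13 alternatives and Mertk under 1.

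**Figure D1:**
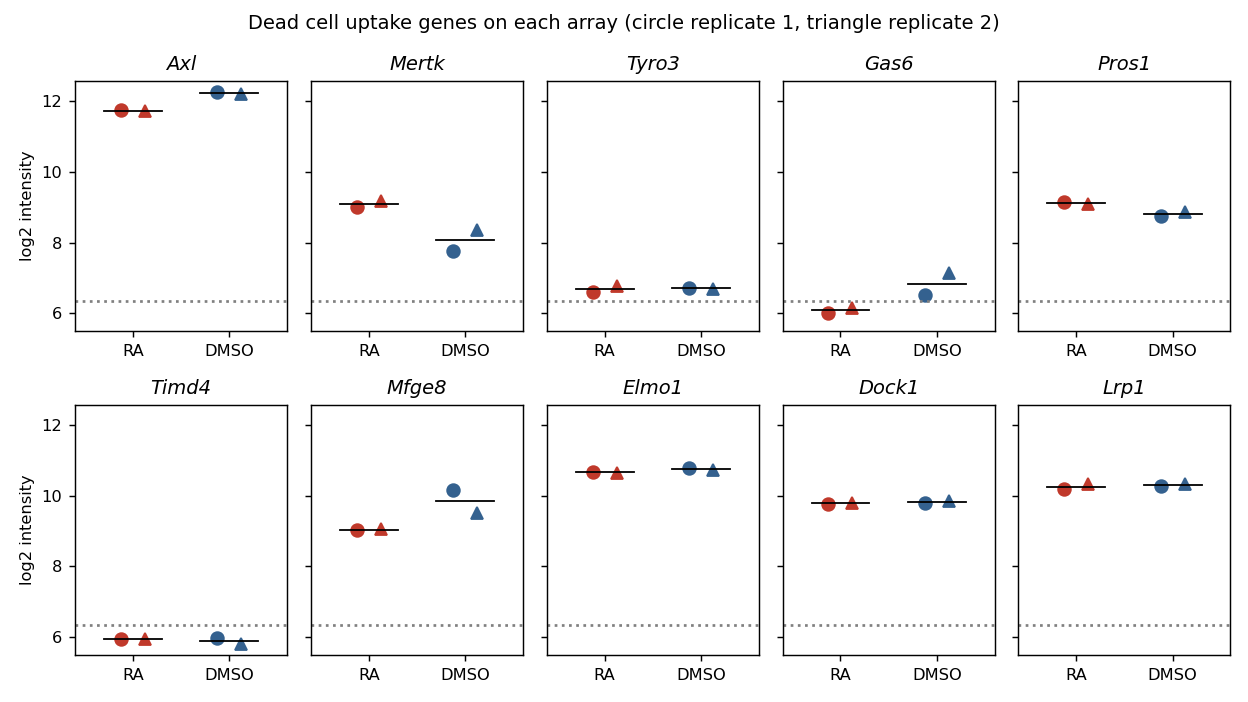
Log2 intensity of each gene on each array, RA (red) left and DMSO (blue) right, with circles for replicate 1, triangles for replicate 2, black lines for group means (n = 2) and a dotted line at the dim level of 6.35. Mertk and Pros1 lie higher on both RA arrays than on both DMSO arrays. Axl, Gas6, Mfge8 and, by a small step, Elmo1 lie lower on both, and Timd4 stays under the dotted line on all 4.

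Axl (probe set 17488032) had log2 intensities of 11.75 and 11.72 with RA, against 12.26 and 12.20 with DMSO. Both RA arrays were below both DMSO arrays, and the replicates lay 0.03 apart with RA and 0.05 apart with DMSO. The difference was -0.49 ± 0.08 (log2, RA minus DMSO, limma SE, n = 2 each), that is 1.41-fold lower with RA, with a 95% interval of -0.70 to -0.29 and a limma adjusted p of 0.0659. Axl passed when only probe sets with 1 symbol were tested (adjusted p = 0.0126), when only those above the dim level were (0.033), with a pseudocount of 16 (0.0376) and with a variance prior that follows intensity (0.011), and ran up to 0.312 without DMSO replicate 2. In bulk RNA, fewer cells that express a gene and less RNA of it per cell cannot be told apart.

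Mertk (probe set 17375997) had the largest difference of the 10 genes. Its log2 intensities were 9.01 and 9.19 with RA, against 7.76 and 8.37 with DMSO. Both RA arrays lay above both DMSO arrays, but the DMSO replicates were 0.61 apart, a gap wider than in 97.8% of probe sets. The difference was 1.04 ± 0.22 (log2, SE), 2.05-fold higher with RA, with a 95% interval of 0.46 to 1.61 and a limma adjusted p of 0.130, which misses the threshold. It passed when only probe sets with 1 symbol were tested (adjusted p = 0.0243). Without DMSO replicate 1 the difference was 0.73, and without DMSO replicate 2 it was 1.34.

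Mertk is itself used as a macrophage marker. Of 11 other macrophage markers 0 passed (limma, adjusted p under 0.05; 2 at an unadjusted p under 0.05) in either direction, with a median log2 difference of 0.14, and 3 of them (Cd163, Siglec1 and Vsig4) lay under the dim level in both groups. Their summed linear intensity was 17465 to 17488 with RA and 14311 to 15571 with DMSO. That list holds C1qa but not C1qb and C1qc, which rose and are described below with the bridging molecules. The summed linear intensity of the 11 dendritic cell markers was 12253 to 12397 with RA and 23138 to 24235 with DMSO. Bright genes weigh most in such a sum. The brightest with DMSO, H2-Ab1, had log2 intensities of 11.78 and 11.77 with RA, against 13.34 and 13.28 with DMSO. Among the markers that missed the threshold, Itgax, Flt3 and Xcr1 differed by -0.42, -0.34 and -0.02, and Batf3 and Cd209a by 0.24 and 0.05. The part of either cell type in the values of Axl and Mertk was not tested. Adgre1, which encodes F4/80, was 10.96 and 10.91 with RA, against 10.66 and 9.95 with DMSO. Its DMSO replicates were also apart, with replicate 2 the lower, whereas for Mertk replicate 1 was the lower. Mrc1 and Fcgr1 had replicate 1 the lower, as Mertk did, with DMSO values of 11.10 and 11.75, and of 10.08 and 10.37. All of these were named after their values were seen, and a relation of their spread to that of Mertk was not tested.

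Tyro3 (probe set 17374880), the third TAM receptor, lay a little above the dim level, with log2 intensities of 6.60 and 6.77 with RA, against 6.71 and 6.70 with DMSO. The groups overlapped. The difference was -0.02, with a 95% interval of -0.27 to 0.22 (limma adjusted p = 0.957).

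The signs of the Axl and Mertk differences were opposite, so their ratio within each array was compared, a comparison chosen after these values were seen. Log2 Mertk minus log2 Axl was -2.74 and -2.53 on the RA arrays, against -4.50 and -3.83 on the DMSO arrays, a shift of 1.53 or 2.89-fold toward Mertk. As the pair was chosen for these differences, the shift is a description and no test is given.

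The promoters of both receptor genes are shown because the probe sets differed in opposite directions. RefSeq sequences of build GRCm38.p6 were used, 250 bases before the annotated start, read 5′ to 3′ on the strand of the gene: chr7:25788734-25788983 (- strand) for Axl and chr2:128698665-128698914 (+ strand) for Mertk. Capitals mark matches, on either strand, to a retinoid receptor half-site (AGGTCA and its variants GGGTCA and, in some target genes, GGTTCA) or to the GC box, GGGCGG, which Sp1 family factors bind. Overlapping matches were counted one by one.
Axl: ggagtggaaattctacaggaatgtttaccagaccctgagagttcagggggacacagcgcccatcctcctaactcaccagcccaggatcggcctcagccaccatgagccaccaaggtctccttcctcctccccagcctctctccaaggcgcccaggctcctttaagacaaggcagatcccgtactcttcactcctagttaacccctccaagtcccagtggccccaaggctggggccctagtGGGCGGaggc
Mertk: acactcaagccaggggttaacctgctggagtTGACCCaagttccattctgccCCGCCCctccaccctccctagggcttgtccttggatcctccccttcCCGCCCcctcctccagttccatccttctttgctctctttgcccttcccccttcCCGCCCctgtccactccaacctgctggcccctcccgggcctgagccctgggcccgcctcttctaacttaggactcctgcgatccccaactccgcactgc
Mertk held 1 half-site match, GGGTCA on the other strand, which starts 219 bases before the start, and 3 GC boxes. Axl held none of the searched half-sites and 1 GC box close to the start. The related sequence AGTTCA occurs unmarked in the Axl window and was not searched, so these matches do not cover every form of half-site. A half-site GGGTCA occurs in 11.6% of 32851 promoter windows of this length, so a single match is a description of the letters and not a binding site.

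Gas6 (probe set 17507605), the ligand that binds all of the TAM receptors, had log2 intensities of 6.01 and 6.15 with RA, against 6.51 and 7.15 with DMSO. Both RA arrays were under the dim level and both DMSO arrays above it, with the DMSO replicates 0.64 apart, wider than in 98.0% of probe sets. The difference was -0.75 ± 0.23 (log2, SE), 1.68-fold lower with RA, with a 95% interval of -1.34 to -0.16 and a limma adjusted p of 0.257, which misses the threshold. As the RA level is at background, the fold is against background. Without DMSO replicate 2 the difference was -0.43, and without DMSO replicate 1 it was -1.07.

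Pros1 (probe set 17326510) encodes protein S, which acts on Tyro3 and Mertk and is also an anticoagulant. Its log2 intensities were 9.14 and 9.10 with RA, against 8.75 and 8.88 with DMSO. Both RA arrays lay above both DMSO arrays by a small step. The difference was 0.30 ± 0.09 (log2, SE), 1.23-fold higher with RA, with a 95% interval of 0.08 to 0.53 and a limma adjusted p of 0.237.

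Within each array, log2 Pros1 minus log2 Gas6 was 3.13 and 2.95 with RA, against 2.24 and 1.73 with DMSO. This pair too was chosen after its values were seen, and since Gas6 lay under the dim level on both RA arrays, no fold or test is given. Both ligands need vitamin K dependent carboxylation, and of 5 measured genes of the carboxylase, the vitamin K reductases and related proteins, limma called 0 (3 at an unadjusted p under 0.05), with a median log2 difference of -0.26. Ggcx, the carboxylase itself and named after its values were seen, differed by 0.24 (adjusted p = 0.354), opposite in sign to that median. The quinone reductase gene Nqo1 differed by -0.80 (adjusted p = 0.405), with DMSO values of 8.64 and 7.80, Vkorc1l1 by -0.28 and Calu by -0.26 (adjusted p = 0.365 and 0.271).

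The ligand promoters are shown for the same reason as those of the receptors, at chr8:13494536-13494785 (- strand) for Gas6 and chr16:62854057-62854306 (+ strand) for Pros1, with capitals for the same motifs.
Gas6: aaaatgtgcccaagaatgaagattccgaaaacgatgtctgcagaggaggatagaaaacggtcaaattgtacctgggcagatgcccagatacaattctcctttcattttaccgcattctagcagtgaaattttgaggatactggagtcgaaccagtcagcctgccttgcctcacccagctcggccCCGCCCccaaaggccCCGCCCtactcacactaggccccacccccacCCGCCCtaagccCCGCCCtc
Pros1: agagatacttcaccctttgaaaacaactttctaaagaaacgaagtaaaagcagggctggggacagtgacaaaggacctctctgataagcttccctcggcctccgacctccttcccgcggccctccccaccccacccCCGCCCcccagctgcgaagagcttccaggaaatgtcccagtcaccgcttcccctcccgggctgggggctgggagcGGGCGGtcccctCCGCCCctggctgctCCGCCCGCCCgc
Neither held a match to the searched half-sites. Gas6 held 4 GC boxes, all within 66 bases of the start, and Pros1 held 5, of which 2 overlap. Over all 10 genes, 9 had a GC box in the window, Timd4 being the exception. A searched half-site was found only in Mertk and in Timd4 (AGGTCA, 116 bases before its start). Taken one by one, AGGTCA is in 14% of all promoter windows, GGGTCA in 11.6% and GGTTCA in 8.85%, so such matches are common. GGGCGG is in 32.7% of all promoter windows and in 55.2% of 12669 windows of genes above the dim level. No window of the 10 genes held a direct repeat of 2 of the searched half-sites with a spacer of 1, 2, 4 or 5 bases. That layout is found in at most 0.125% of all windows for any of these spacers. Repeats that include AGTTCA were not searched, so such elements could have been missed. The search covered 11 windows, since Elmo1 has 2 starts, and says nothing of sites farther away.

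**Figure D2:**
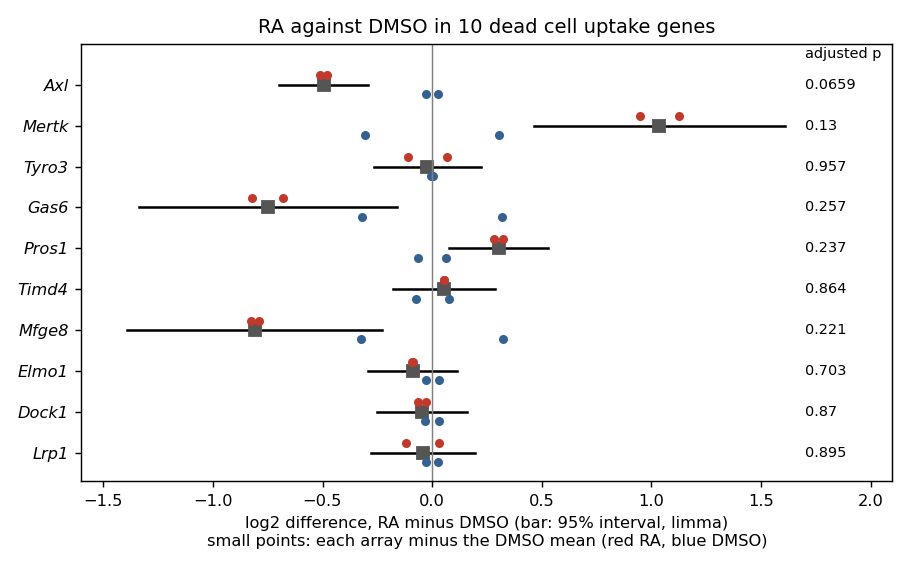
Log2 difference, RA minus DMSO, of each gene (square) with its 95% interval from limma (bar), the 2 RA arrays in red and the 2 DMSO arrays in blue relative to the DMSO mean, and the adjusted p at the right. The intervals of Axl, Mertk, Gas6, Pros1 and Mfge8 leave out 0, but no adjusted p is under 0.05, and the DMSO arrays of Mertk, Gas6 and Mfge8 are more than 0.61 apart.

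Timd4 (probe set 17248860) encodes TIM-4, a receptor that binds phosphatidylserine directly and marks resident macrophages of several tissues. Its log2 intensities were 5.95 and 5.95 with RA, against 5.97 and 5.82 with DMSO, all under the dim level. The difference of 0.05 (95% interval -0.18 to 0.29, limma adjusted p = 0.864) is one between background values and does not show whether the gene responded.

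Mfge8 (probe set 17492314) encodes a secreted bridge between phosphatidylserine and the αv integrins. Its log2 intensities were 9.02 and 9.06 with RA, against 10.17 and 9.53 with DMSO. Both RA arrays were below both DMSO arrays and nearly equal, while the DMSO replicates were 0.65 apart, wider than in 98.1% of probe sets. The difference was -0.81 ± 0.22 (log2, SE), 1.75-fold lower with RA, with a 95% interval of -1.39 to -0.23 and a limma adjusted p of 0.221. Without DMSO replicate 1 it was -0.49, and without DMSO replicate 2 it was -1.13.

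Of the genes for integrin subunits that receive Mfge8, Itgb5, the β5 subunit, rose: its log2 intensities were 8.46 and 8.69 with RA, against 6.78 and 7.07 with DMSO (3.13-fold, limma adjusted p = 0.0156). Itgav, the αv subunit, was 10.21 and 10.18 with RA, against 10.28 and 10.29 with DMSO (difference -0.09, adjusted p = 0.695). Itgb3, the β3 subunit, was 8.12 and 8.38 with RA, against 7.81 and 7.87 with DMSO (difference 0.41, adjusted p = 0.225). Itgav and Itgb3 missed the threshold and were named here after their values were seen, and differences between the subunits were not tested.

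Elmo1 (probe set 17285559) and Dock1 (probe set 17484167) form the exchange factor that loads Rac1 with GTP. Elmo1 was 10.66 and 10.66 on the log2 scale with RA, against 10.78 and 10.72 with DMSO. Its groups did not overlap, yet the difference was only -0.09 (95% interval -0.29 to 0.11, limma adjusted p = 0.703). Dock1 was 9.77 and 9.80 with RA, against 9.80 and 9.86 with DMSO, with overlapping groups and a difference of -0.05 (95% interval -0.25 to 0.16, adjusted p = 0.870). The intervals of both genes leave out a change of 1.5-fold in either direction.

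Lrp1 (probe set 17245923), a large endocytic receptor that recognises calreticulin on dying cells, was 10.19 and 10.34 with RA, against 10.28 and 10.33 with DMSO. The groups overlapped, with a difference of -0.04 and a 95% interval of -0.28 to 0.19 (limma adjusted p = 0.895). Its chaperone gene Lrpap1, named after its values were seen, differed by -0.12 (adjusted p = 0.606).

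The surrounding pathway was described through 10 lists with 127 measured genes, of which 9 rose, 10 fell and 108 did not pass, where 3.07% of all named genes passed, 1.28% as rises and 1.79% as falls. The median log2 difference over the 127 was -0.02, beside 0.01 over all named genes. The lists were chosen with earlier results of these arrays known, among them those of Havcr2, Trem2, Stab1, C1qb, C1qc and Rxra, so their counts are descriptions. With 1 array left out, at most 1 of the 127 rose and 0 fell by limma. These calls also rest on leaving out 1625 probe sets that hold one value on all arrays: with them kept, 0 of the 127 passed.

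Of 20 measured phosphatidylserine and apoptotic cell receptors other than those above, 4 rose, 1 fell and 15 did not pass, with a median of 0.13. Besides Itgb5, the rises were in Olr1, a receptor for oxidised LDL (2.54-fold, log2 difference 1.34 ± 0.11, limma adjusted p = 0.0150), the lipid receptor Trem2 (2.01-fold, adjusted p = 0.0185) and the scavenger receptor Stab1 (1.82-fold, adjusted p = 0.0212). Havcr2, which encodes TIM-3, a phosphatidylserine receptor of the same family as Timd4, fell. Its log2 intensities were 8.06 and 8.02 with RA, against 10.16 and 9.97 with DMSO (4.08-fold lower, adjusted p = 0.00488). Timd2, Stab2, Megf10 and Havcr1 were under the dim level in both groups.

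Of 14 further bridging molecules, 2 rose, 1 fell and 11 did not pass. The rises were in C1qb (2.20-fold, limma adjusted p = 0.0210) and C1qc (1.77-fold, adjusted p = 0.0293), subunits of the complement protein that coats dying cells. The third subunit gene, C1qa, was 9.86 and 9.49 with RA, against 9.03 and 9.10 with DMSO, and did not pass (adjusted p = 0.164). Anxa1, which encodes annexin A1, differed the other way, by -0.67 (adjusted p = 0.0750), without passing, and it and C1qa were named after their values were seen. Thbs1, which encodes thrombospondin 1, a bridge from dying cells to CD36 and αv integrins, was 7.27 and 7.80 with RA, against 8.96 and 8.96 with DMSO (2.68-fold lower, adjusted p = 0.0424).

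Of 21 further genes of the engulfment machinery, 1 rose, 2 fell and 18 did not pass, with a median of -0.11. Vav3, a guanine nucleotide exchange factor, was 2.12-fold lower (limma adjusted p = 0.0126) and Dock4, a relative of Dock1, 1.72-fold lower (adjusted p = 0.0287). Abca1, the cholesterol exporter that phagocytes use after taking up dead cells, was 9.06 and 8.93 with RA, against 7.56 and 7.79 with DMSO (2.50-fold higher, adjusted p = 0.0156). Elmo2, Dock2 and Dock5, relatives of Elmo1 and Dock1 named after their values were seen, differed by -0.28, -0.40 and -0.23 (adjusted p = 0.216, 0.110 and 0.336).

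Of 20 genes of dead cell digestion, Ctsl rose, Slc29a3 fell and 18 did not pass. Ctsl, the lysosomal protease cathepsin L, was 11.27 and 11.09 with RA, against 9.16 and 9.19 with DMSO (4.01-fold higher, limma adjusted p = 0.00488). Slc29a3, a lysosomal nucleoside transporter, was 10.01 and 9.97 with RA, against 11.60 and 11.48 with DMSO (2.92-fold lower, adjusted p = 0.00603), while a second probe set of the gene, at background on all arrays, had a difference of 0.08 (adjusted p = 0.855). The lysosomal membrane protein genes Lamp1 and Lamp2 and the oxidase subunit gene Cybb differed by 0.48, 0.37 and 0.45 and did not pass (adjusted p = 0.0710, 0.157 and 0.227).

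In the list of other low density lipoprotein receptor family members, whose 13 measured genes include Lrpap1, Sorl1 rose, Lrp8 and Lrp12 fell and 10 did not pass. Sorl1, a sorting receptor, was 11.07 and 11.14 with RA, against 9.48 and 9.37 with DMSO (3.21-fold higher, limma adjusted p = 0.00498). Lrp8, a receptor for reelin and apolipoprotein E, was 1.84-fold lower (adjusted p = 0.0157) and Lrp12 1.65-fold lower (adjusted p = 0.0438). Whether these genes responded unlike Lrp1 was not tested.

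In the list of TAM receptor shedding, signalling and feedback, limma called 0 of 13 measured genes (3 at an unadjusted p under 0.05). The largest differences were -0.47 in Socs1 and -0.38 in Socs3, inhibitors of cytokine signalling that TAM receptors induce (adjusted p = 0.0769 and 0.118), and 0.29 in Adam10, a membrane protease (adjusted p = 0.246). Of 7 measured lipid nuclear receptors, Rxra, a partner of the retinoic acid receptors and of the LXR receptors that sense lipid from dead cells, was 2.71-fold lower (adjusted p = 0.0242), and the remaining 6 missed the threshold. Of these, Pparg differed by -0.26, Rxrb by 0.22 and Nr1h3, which encodes LXRα, by -0.19 (adjusted p = 0.357, 0.448 and 0.423).

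Of 7 genes for signals that draw phagocytes to dying cells, Gpr132, a receptor linked to lysophosphatidylcholine, was 2.11-fold lower (limma adjusted p = 0.0134). The remaining 6 missed the threshold, with P2ry2 at -0.42, Panx1 at 0.25 and Cx3cl1 at 0.16 (adjusted p = 0.0950, 0.344 and 0.621). Of 8 genes for signals against uptake, Plau, which encodes urokinase, was 1.86-fold lower (adjusted p = 0.0159), and the remaining 7 missed the threshold. Among them Cd47, the ligand that restrains phagocytes through Sirpa, was 11.17 and 11.11 with RA, against 11.49 and 11.50 with DMSO (difference -0.35, adjusted p = 0.138). Siglecg differed by 0.82 and Cd24a by -0.37 (adjusted p = 0.122 and 0.242).

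**Figure D3:**
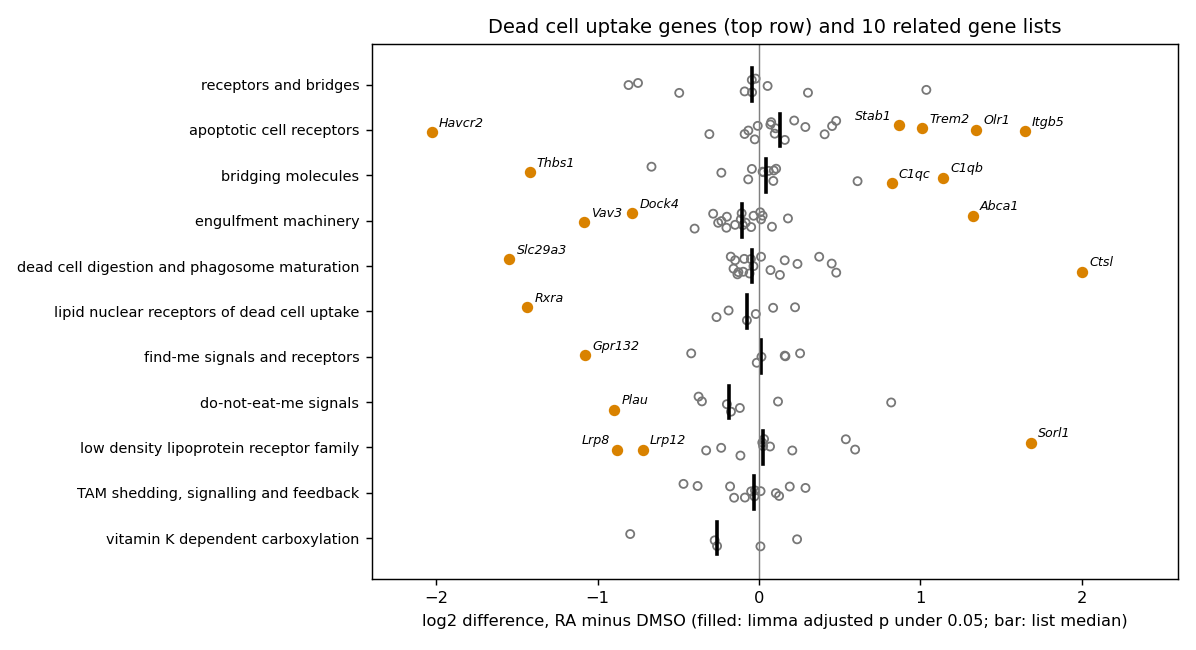
Log2 difference, RA minus DMSO, of each measured gene (points) in the 10 genes described (top row) and in the 10 related lists, with filled points for a limma adjusted p under 0.05 and black bars for list medians. No point of the top row is filled, while 4 of the apoptotic cell receptors rose and 1 fell.

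Markers of other bone marrow cells were examined beside these values. Of 13 neutrophil markers 2 rose (Retnlg, under the dim level in both groups, and Mmp9), of 10 mast cell, basophil and eosinophil markers 1 rose (Siglecf), and of 8 B cell markers 2 rose (Ighm and Cd79b), while Pax5, Ebf1, Ms4a1, Vpreb1 and Vpreb3 lay under the dim level in both groups. The summed linear intensity of the neutrophil markers was 20110 to 21223 with RA and 18813 to 19423 with DMSO, and that of the B cell markers 4321 to 4425 with RA and 1559 to 1705 with DMSO. Of the B cell sum, the Ighm probe set alone held 3810 to 3910 with RA and 1137 to 1293 with DMSO, and the other 7 markers together 511 to 514 with RA and 412 to 423 with DMSO. The other 6 probe sets of Ighm did not pass (limma), among them one above the dim level with a log2 difference of 0.86 (adjusted p = 0.0651). Limma called 0 of 10 T and NK cell markers, 0 of 6 erythroid and megakaryocyte markers and 0 of 11 stromal and endothelial markers (1, 1 and 0 at an unadjusted p under 0.05). The part of these cells in the results was not tested.

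**Figure D4:**
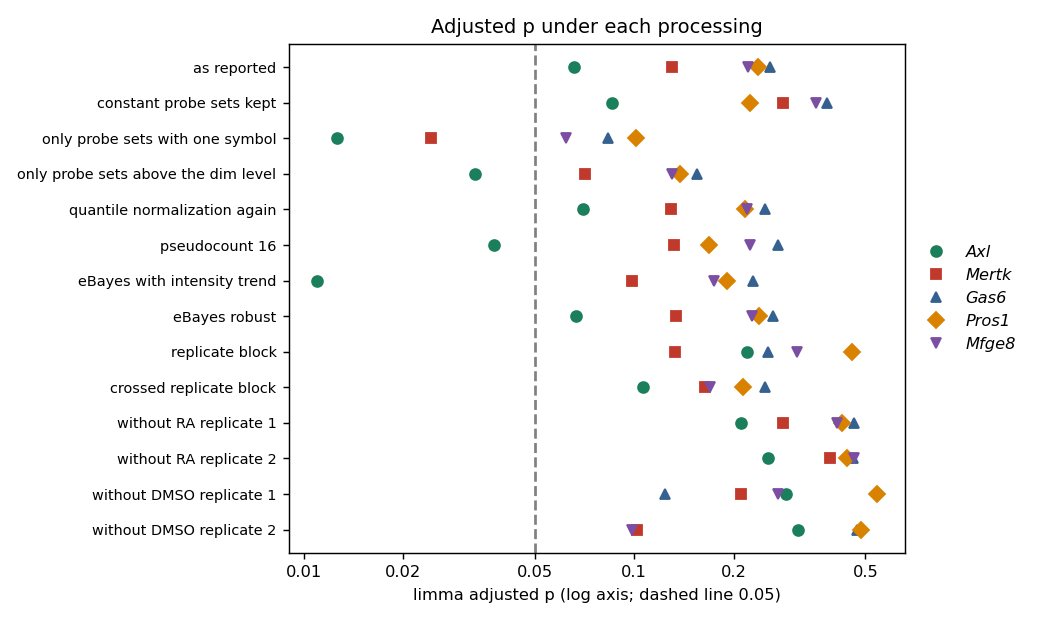
Limma adjusted p (log axis) of the 5 genes with an unadjusted p under 0.05, as reported and under each of the 13 alternatives, with a dashed line at 0.05. Axl lies left of the line in 4 alternatives and Mertk in 1, and Gas6, Pros1 and Mfge8 stay right of it in all of them.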

How the data were processed

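Total RNA (250 ng) from 4 samples, 2 with RA and 2 with DMSO, was labelled with biotin and read on 1-colour whole-transcript arrays, per the labels' protocols. For each array the authors deposited intensities of probe sets, made with Affymetrix Expression Console and RMA per the submitters' processing notes; versions and genome build are not given in the sources used here. The intensities are linear and were taken to log2 here. RMA shrinks differences of dim genes. No detection calls were used, and the number of arrays limits the precision.

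Of 41345 probe sets, 1625 held one identical value on all arrays and were left out, leaving 39720. Names came from the platform annotation (23521 probe sets with 1 symbol, 1814 with several, 16010 unnamed here). All 10 gene identifiers were found in RefSeq under the same symbol. Where a listed gene had several probe sets, the one brightest on average over the 4 arrays stood for it. RA was compared with DMSO by limma 3.58.1 (R 4.3.3; lmFit, eBayes), two-sided, with Benjamini-Hochberg adjustment over all probe sets tested and a threshold of 0.05. The eBayes step draws the variance of each probe set toward that of all probe sets (2.76 prior and 2 residual degrees of freedom). The members and lists were chosen with earlier results of these data known. Named are all 10 genes, list genes that passed and, where fewer than 3 passed, up to 3 more by size of difference, with exceptions stated. Listed genes with no single-symbol probe set were not analysed here. No gene was named for a similar pattern, since any responding gene shares it over 2 groups of 2 arrays.

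The replicate numbers were not taken to pair the samples, since the labels tie no RA sample to a DMSO sample. Deviations from the group means of same-numbered samples correlated at -0.25 across probe sets, which does not show whether samples were paired. The alternatives were other probe set filters, normalization again, a pseudocount, other variance priors, a replicate block and leaving out each array.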

Additional observations from a re-analysis of the deposited data

How the results depend on the processing

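The counts of calls depended on the probe sets tested and on each array. Keeping the constant probe sets in the fit gave 0 called probe sets (limma; 6260 at an unadjusted p under 0.05) in place of 831, and 0 rises and 0 falls over the 127 pathway genes in place of 9 and 10. Testing only probe sets with 1 symbol gave 1636 called probe sets, 15 rises and 16 falls, with 1 of the 10 genes higher (Mertk) and 1 lower (Axl). Axl was also the 1 gene lower above the dim level, with a pseudocount of 16 and with an intensity trend. With the replicate block, 161 probe sets, 3 rises and 3 falls passed and 0 of the 10 genes. The labels link same-numbered samples by number only and do not say whether they share a culture or batch. Whether these losses mean weaker effects therefore cannot be told. The crossed replicate block, chosen after seeing the data, gave 457 called probe sets, 6 rises and 6 falls. Leaving out 1 array gave 25 to 55 called probe sets, 0 to 1 rises, 0 falls and 0 of the 10 genes. With 1 array in a group, that array is assumed to vary like those of the other. In these fits the log2 difference ran from -0.108 to 0.066 for Tyro3, from -0.119 to 0.0321 for Lrp1 and from -0.0225 to 0.128 for Timd4, each changing sign once (without RA replicate 1 for Tyro3 and Lrp1, without DMSO replicate 2 for Timd4), and none of the 3 passed. The other 7 genes kept their sign under every alternative. Normalization again shifted the median of all probe sets by 0.02. The cause of these changes was not tested, and some fits also differed from the main one in the number of samples or probe sets.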
